A study of Mus musculus with 2 samples.

Results

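Vps8 and 5 further genes encode the subunits of CORVET, a complex of 6 proteins that tethers early endosomes before they fuse. These 6 genes, Vps8, Tgfbrap1, Vps11, Vps16, Vps18 and Vps33a, were all found among the 28692 genes of both deposited matrices. Vps8 was chosen by its foot shock to control ratio, first seen in neurons of the lateral habenula, so this ratio is given as a description; the other 5 were taken because their proteins share the complex with it. The data are droplet RNA sequencing of dissociated habenula from adult male C57BL/6 mice aged P50-55. The habenula is a small epithalamic structure whose medial and lateral divisions are written MHb and LHb here. The foot shock library came from mice that received 30 shocks of 0.3 mA within 60 min and had been habituated to the chamber on 7 days, and the control library came from home cage mice. Both groups were handled daily, tissue of 4 animals was pooled into 1 library per group, and slices and cells of both were kept in blockers of transcription, translation and neuronal firing. Shock, chamber habituation and every difference between the preparations therefore cannot be told apart.

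CORVET acts at Rab5-positive early endosomes, where it holds membranes together until SNARE proteins drive fusion. Vps8 binds Rab5 and, with Tgfbrap1 (the mammalian counterpart of yeast Vps3), makes up the pair of subunits specific to CORVET. Vps11, Vps16, Vps18 and Vps33a form the class C core, which CORVET shares with HOPS, the tether of late endosomes and lysosomes whose own subunits are Vps39 and Vps41. Vps11 and Vps18 bridge the core to the Rab-binding ends, while Vps16 recruits Vps33a, the subunit that grips SNAREs. In neurons this route sorts internalised receptors and other cargo towards recycling or degradation.

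The libraries held 22189951 UMIs (unique molecular identifiers, each standing for 1 captured transcript) in foot shock and 23095501 in control, and 4771 foot shock and 4880 control cells were kept. Levels are CPM, the gene's share of all UMIs in its class and library on the usual CPM scale. With 1 library per group no test was made, and all intervals (exact 95%) cover counting error only. A ratio was computed where the libraries together held at least 20 UMIs, and a gene was counted as higher at a foot shock to control ratio of at least 1.5 and as lower at 0.667 or less. Classes were named from marker genes and compared where each library held at least 50 cells, which left 10 classes. Tac2, a tachykinin of medial neurons, was among the markers that named MHb-like neurons, so its level describes the class and does not check the name. It was at 610 and 581 CPM in MHb-like neurons of foot shock and control, against 24.6 and 8.42 CPM in LHb-like neurons. The foot shock library stood apart in holding 503 keratin epithelium-like and 45 fibroblast-like cells, for which control had 0. Kept cells of the libraries shared 32 barcodes, and 31.6 would be shared by barcodes drawn at random.

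The upstream sequences of 3 members are shown because they bear on whether Vps8 has the start-site motif of lysosomal genes that other subunits carry. Each is the 250 bases before the RefSeq start (GRCm38.p6), for Vps8 chr16:21422868-21423117 on the plus strand, for Vps16 chr2:130424070-130424319 on the plus strand and for Vps33a chr5:123573016-123573265 on the minus strand, and capitals mark CACGTG, the E-box, and GTCACGTGAC, the CLEAR palindrome, which holds an E-box within it.
Vps8: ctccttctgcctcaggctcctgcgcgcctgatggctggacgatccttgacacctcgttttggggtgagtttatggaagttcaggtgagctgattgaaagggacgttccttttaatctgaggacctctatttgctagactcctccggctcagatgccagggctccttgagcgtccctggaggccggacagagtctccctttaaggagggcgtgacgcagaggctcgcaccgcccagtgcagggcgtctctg
Vps16: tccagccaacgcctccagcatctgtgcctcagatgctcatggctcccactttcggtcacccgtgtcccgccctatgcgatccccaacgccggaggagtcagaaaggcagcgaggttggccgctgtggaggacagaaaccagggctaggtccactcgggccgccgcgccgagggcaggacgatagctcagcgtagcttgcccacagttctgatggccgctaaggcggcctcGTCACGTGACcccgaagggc
Vps33a: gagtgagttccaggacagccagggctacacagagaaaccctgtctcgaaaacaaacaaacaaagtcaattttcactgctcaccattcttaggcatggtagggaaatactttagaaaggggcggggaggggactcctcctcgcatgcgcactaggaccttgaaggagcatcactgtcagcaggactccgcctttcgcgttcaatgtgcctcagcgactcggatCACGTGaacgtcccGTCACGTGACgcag
GTCACGTGAC, bound by the lysosomal regulator TFEB, began 20 bases before the start of Vps16 and 14 bases before that of Vps33a, and stood in 0.24% of 32851 such windows of all genes, searched on both strands. CACGTG stood in 6.02% of the windows and, among the members, in the same 2 genes. The activity-linked motifs TGACGTCA (CRE, in 1.55% of windows) and TGACTCA (AP-1, in 4.46%) were found in no window of the 5 members with an entry. A match is only a description of the letters in this window.

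Vps8 was higher in the foot shock library in neurons of every class, by close to 3-fold. In LHb-like neurons it stood at 1455 CPM (1413 to 1497) in 843 foot shock cells and 485 CPM (464 to 506) in 950 control cells, a ratio of 3.00 (2.85 to 3.16). MHb-like neurons had 514 CPM (496 to 533) in 1627 foot shock cells and 171 CPM (159 to 182) in 1208 control cells, a ratio of 3.02 (2.79 to 3.26). Both habenula divisions thus differed between libraries by ratios whose intervals overlapped, although the level itself was lower in medial than in lateral neurons of either library.

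Thalamus-like neurons, which neighbour the habenula, had 1645 CPM (1494 to 1807) in 58 foot shock cells and 597 CPM (543 to 654) in 131 control cells, a ratio of 2.76 (2.41 to 3.15). The other neurons, which lack the habenula factor Pou4f1 at the required level, had the highest Vps8 level of any compared class in both libraries. They stood at 2489.6 CPM (2381 to 2602) in 217 foot shock cells and 706 CPM (662 to 752) in 305 control cells, a ratio of 3.53 (3.26 to 3.81). In those of 1000 to under 2000 UMIs the ratio was 7.15, from 159 Vps8 UMIs.

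**Figure D1:**
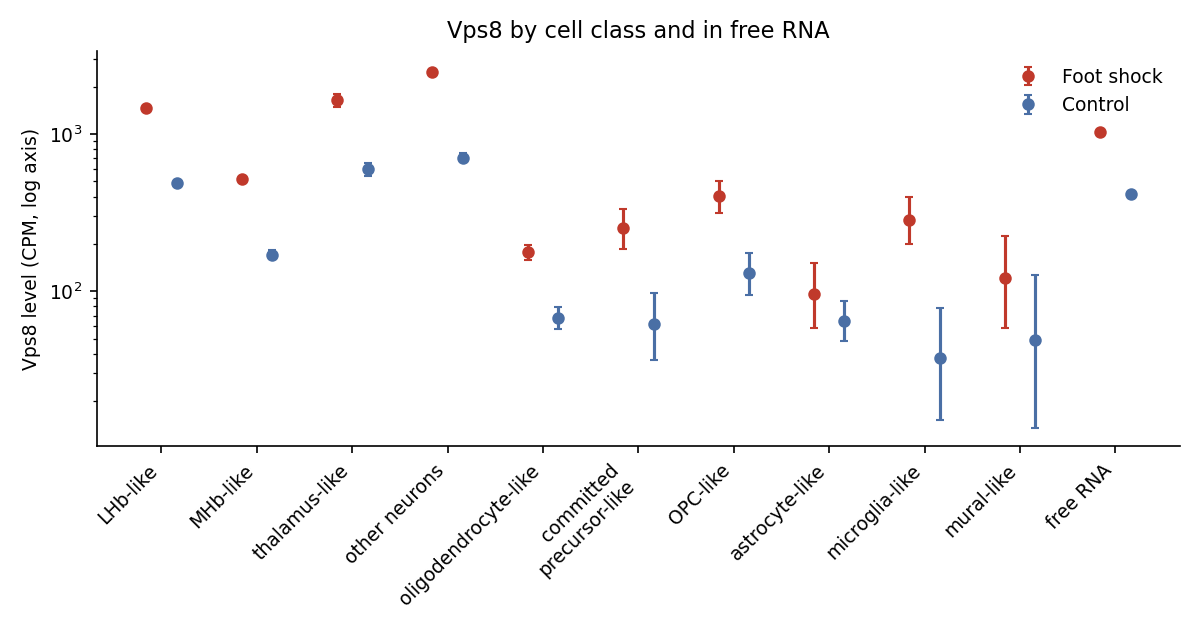
Vps8 level in CPM on a log axis in 10 cell classes and in free RNA (barcodes of 10 to 100 UMIs), foot shock left of control in each; points are levels of 1 library and bars exact Poisson 95% intervals for counting error. The foot shock point lies above the control point in each class and in free RNA, and the intervals overlap in astrocyte-like and mural-like cells.

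In glia Vps8 was lower than in neurons of the same library (with overlapping intervals for oligodendrocyte precursor-like cells and MHb-like neurons), and its ratio was 1.48 or more wherever it was measured. Oligodendrocyte-like cells, the myelin-forming class, had 178 CPM (159 to 198) in foot shock and 67.9 CPM (57.8 to 79.1) in control, a ratio of 2.62 (2.16 to 3.18). Committed precursor-like cells, on the way to becoming oligodendrocytes, had 253 and 61.9 CPM, from 48 and 18 UMIs, with a ratio of 4.08 (2.33 to 7.46). In foot shock 1 committed precursor-like cell held 19 of the 48 UMIs; without the cell of most Vps8 UMIs in each library the levels were 164 and 55.5 CPM and the ratio 2.95, and with each cell thinned to 1000 UMIs they were 190 and 64.5 CPM. Oligodendrocyte precursor-like cells had 402 and 131 CPM, from 75 and 43 UMIs, with a ratio of 3.08 (2.09 to 4.59). Of these UMIs, 1 foot shock cell held 17 and 1 control cell held 9. Among precursors of at least 2000 UMIs the levels were 712 and 574 CPM and the ratio 1.24, so the call ended there. These levels lay above the 517 and 171 CPM of MHb-like neurons of at least 2000 UMIs.

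Microglia-like cells, the resident macrophages of the brain, had 286 and 37.9 CPM with a ratio of 7.54 (3.31 to 20.1), resting on 36 foot shock and 7 control UMIs. Of these UMIs, 1 foot shock cell held 8 and 1 control cell held 3. With cells from 500 UMIs accepted that ratio was 3.40. Astrocyte-like cells had 96.5 and 65.1 CPM with a ratio of 1.48 (0.824 to 2.56), an interval that holds 1, and 2.41 with cells from 500 UMIs. Mural-like cells of the vessel wall held 10 and 4 Vps8 UMIs, too few for a ratio.

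RNA of neurons was also higher in foot shock in these glial classes. The summed level of 6 neuron markers (Snap25, Syt1, Stmn2, Meg3, Rbfox3 and Snhg11) was 1846 CPM in foot shock and 569 CPM in control oligodendrocyte-like cells, a ratio of 3.25 (3.05 to 3.46). In the other glial classes that ratio was 5.72 in committed precursor-like, 3.58 in astrocyte-like, 3.09 in microglia-like and 1.99 in oligodendrocyte precursor-like cells, and none of the 6 markers was at 0 in these classes in either library. Oligodendrocyte precursor-like cells had the highest marker sum of these, 12105 and 6076 CPM. Only 4 of 107 foot shock and 11 of 244 control precursors had no UMI of the 6 markers. In oligodendrocyte-like cells with no UMI of the 6 markers, 406 of 865 foot shock and 503 of 1086 control cells, Vps8 stood at 119 and 65.8 CPM and the ratio was 1.81 (1.32 to 2.49). In the other glial classes such cells held at most 33 Vps8 UMIs, and the part of neuronal RNA in their ratios was not tested. In neurons the same marker sum had ratios of 0.913 in thalamus-like, 0.968 in LHb-like, 1.01 in MHb-like and 1.01 in other neurons, so it was nearly level where Vps8 differed by about 3-fold.

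Free RNA, summed here from barcodes holding 10 to 100 UMIs, carried the Vps8 difference too. It held 1025 CPM (993 to 1057) in 94619 foot shock barcodes and 414 CPM (393 to 435) in 74374 control barcodes, a ratio of 2.48 (2.33 to 2.63). The neuron marker sum in free RNA was 4348 and 3999 CPM, a ratio of 1.09. By depth, the Vps8 ratio was 1.57 (1.22 to 2.03) in barcodes of 1 to 9 UMIs, 1.84 in those of over 100 and up to 300, 2.42 in those of over 300 and up to 500 and 2.14 (1.79 to 2.55) in those of over 500 and under 1000. It was 2.94 from 1000 to under 2000 UMIs, 3.29 (3.04 to 3.56) from 2000 to under 4000 and 2.71 at 4000 and over. Over all barcodes Vps8 stood at 737 and 299 CPM, and 65.9% of its UMIs in foot shock and 66.6% in control lay in kept cells.

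Set against free RNA of its own library, Vps8 in LHb-like neurons was at 142% in foot shock and 117% in control, and in other neurons at 243% and 171%. MHb-like neurons were at 50.2% and 41.2%, and oligodendrocyte-like cells at 17.3% and 16.4%. Keratin epithelium-like cells of foot shock stood at 13.8 CPM, which is 1.34% of that library's free RNA level. The 45 fibroblast-like cells of foot shock held 0 Vps8 UMIs, with an interval that reaches 51.5 CPM.

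Both the share of cells with Vps8 and the amount per cell were higher in foot shock. At least 1 Vps8 UMI was found in 82.1% of foot shock and 68.6% of control LHb-like neurons, and at least 10 UMIs in 21.1% and 1.16%. Their median was 11.3 UMIs per 10000 in foot shock and 3.82 in control, while the 10% of cells with most Vps8 held 29.5% and 33.8% of its UMIs. In MHb-like neurons 64.0% and 39.8% of cells had a UMI, in other neurons 93.1% and 75.1%, and in oligodendrocyte-like cells 23.0% and 13.7%, against 2.58% of keratin epithelium-like cells in foot shock, whose median depth was 2300 UMIs. Foot shock neurons were shallower (median 3651 UMIs in LHb-like cells, against 4348.5 in control), and with each cell thinned to 1000 UMIs the shares were 63.3% and 33.7% in LHb-like, 34.7% and 14.2% in MHb-like and 12.9% and 6.72% in oligodendrocyte-like cells.

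**Figure D2:**
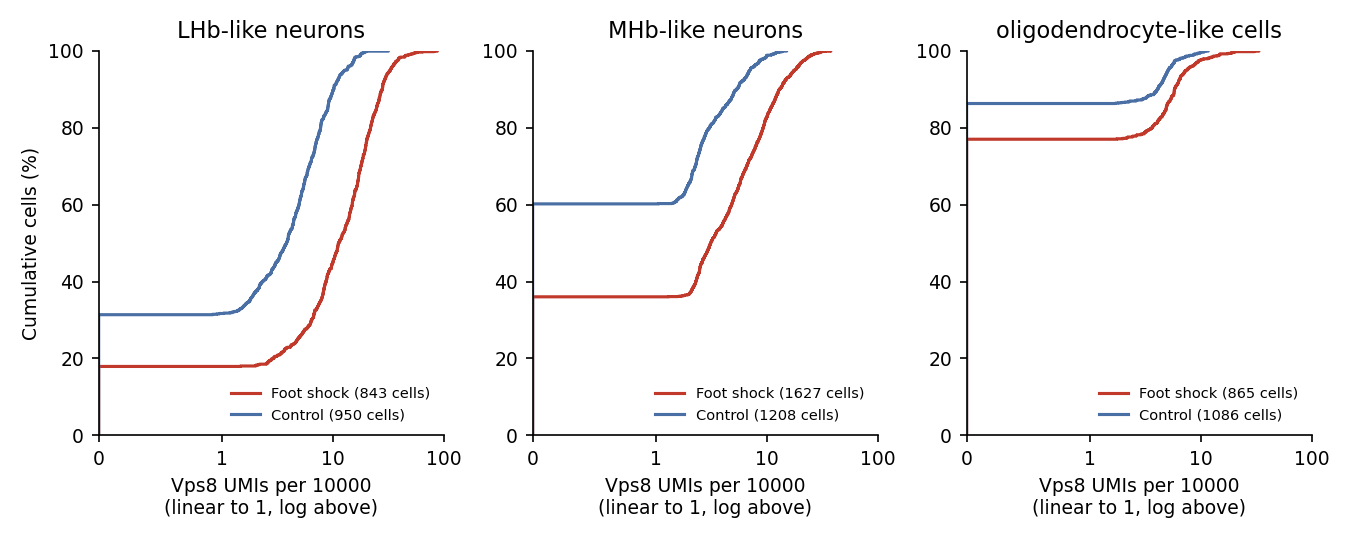
Cumulative share of cells (percent) at or below a given number of Vps8 UMIs per 10000 UMIs of the cell, on an axis that is linear to 1 and logarithmic above, for LHb-like neurons, MHb-like neurons and oligodendrocyte-like cells. The foot shock curve lies right of the control curve over its whole length; the level at 0 is the share of cells without a Vps8 UMI, 17.9% of foot shock and 31.4% of control LHb-like neurons.

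Within the habenula classes the Vps8 level and its ratio both varied between sub-clusters. Sub-clusters were not matched for depth per cell between the libraries, and each class as a whole includes them. LHb-like neurons formed 9 sub-clusters, with Vps8 between 919 and 2168 CPM in foot shock and between 253 and 696 CPM in control, and ratios from 2.71 to 4.14. The highest lateral level was in the sub-cluster led by Ddc, an enzyme of monoamine synthesis, at 2168 and 696 CPM, and the lowest in the one led by the neuropeptide gene Sst, at 919 and 253 CPM. The sub-cluster led by Pam, an enzyme of peptide amidation, had 1698 and 410.0 CPM and a ratio of 4.14 (3.29 to 5.27), above the interval of LHb-like neurons as a whole and not overlapping the 2.71 (2.32 to 3.18) of the one led by Peg10. MHb-like neurons formed 9 sub-clusters with ratios from 1.52 to 4.33. The one led by the actin gene Actb had 484 and 112 CPM and a ratio of 4.33 (3.27 to 5.79), above the interval of MHb-like neurons as a whole. The sub-cluster led by Syt2, a calcium sensor of vesicle release, had 427 and 216 CPM and a ratio of 1.98 (1.61 to 2.44), below the interval of MHb-like neurons as a whole. The cholinergic sub-cluster led by Slc18a3, the vesicular acetylcholine transporter, held 26 foot shock and 48 control cells and gave 1.52 (0.555 to 4.03).

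The ratio was above 1.5 in each depth band and at each mitochondrial share examined in both habenula classes. In LHb-like neurons the ratio was 2.96 in cells of 1000 to under 2000 UMIs, 3.32 from 2000 to under 4000 and 3.04 at 4000 and over, and in MHb-like neurons 2.85, 3.76 and 2.92. The MHb-like intervals of the 2 deeper bands, 3.21 to 4.42 and 2.66 to 3.21 as rounded, did not overlap. At or below the class's median mitochondrial share it was 3.07 in LHb-like and 3.20 in MHb-like neurons, and above it 3.12 and 2.79.

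**Figure D3:**
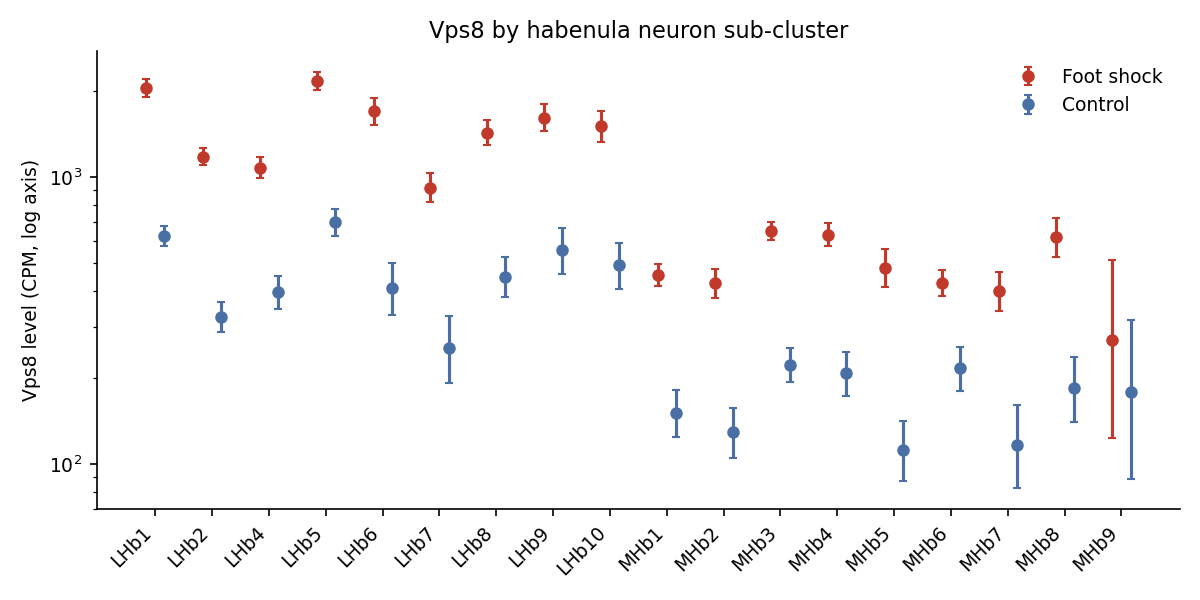
Vps8 level in CPM on a log axis in the 9 LHb-like and 9 MHb-like sub-clusters, foot shock left of control in each; bars are exact Poisson 95% intervals. Foot shock lies above control in each sub-cluster, and the intervals overlap in MHb9, the sub-cluster led by Slc18a3, with 9 and 11 UMIs.

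Tgfbrap1, the other CORVET-specific subunit, was nearly level between the libraries in habenula neurons. It had 23.9 CPM in foot shock and 23.8 CPM in control LHb-like neurons, a ratio of 1.01 (0.735 to 1.37), and 26.3 and 27.3 CPM in MHb-like neurons, a ratio of 0.964 (0.759 to 1.23). Its ratio was 1.18 in other neurons, 0.967 in thalamus-like neurons, 0.973 in oligodendrocyte-like cells, 1.06 in astrocyte-like cells and 0.748 in free RNA, each with an interval that holds 1. Summed over all barcodes it had 463 and 555 UMIs and a ratio of 0.868 (0.766 to 0.984), an interval below 1.

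The class C core did not follow Vps8 either. Vps33a was the only other subunit with an interval above 1 in LHb-like neurons, at 43.7 and 34.1 CPM with a ratio of 1.28 (1.01 to 1.63), and stood at 33.9 and 34.2 CPM in MHb-like neurons, a ratio of 0.991 (0.802 to 1.22). Vps11 had 29.4 and 27.4 CPM in LHb-like neurons with a ratio of 1.07 (0.805 to 1.42), and 19.9 and 23.9 CPM in MHb-like neurons with a ratio of 0.833 (0.638 to 1.09). Vps16 had 18.2 and 24.3 CPM in LHb-like neurons with a ratio of 0.749 (0.532 to 1.05), and 15.8 and 14.7 CPM in MHb-like neurons with a ratio of 1.07 (0.780 to 1.48). Vps18 had 23.0 and 22.6 CPM in LHb-like neurons with a ratio of 1.02 (0.737 to 1.40), and 19.0 and 15.7 CPM in MHb-like neurons with a ratio of 1.21 (0.895 to 1.64). The upper ends of these 10 intervals, the 5 subunits in 2 habenula classes, all lay below the lower end for Vps8 in the same class. Because Vps8 was chosen by its ratio in habenula neurons, this gap is only a description. Over all barcodes Vps16 was at 0.740 (0.640 to 0.855), also below 1, while the intervals of Vps11 at 0.895 (0.783 to 1.02), Vps18 at 0.954 (0.823 to 1.11) and Vps33a at 0.939 (0.837 to 1.05) held 1.

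Of the 6 members in LHb-like neurons, 1 was counted as higher and 0 as lower, where 3.64% and 5.96% of the 11635 genes measured there were. In MHb-like neurons it was also 1 higher and 0 lower, against 3.01% and 4.55% of 11769 genes. In both classes the 1 was Vps8, whose contrast chose it, so nothing is read from its own count. In other neurons 1 of 6 was higher, Vps8, against 5.57% of genes, and Vps18 lay just under 1.5 (0.879 to 2.55). In thalamus-like neurons Vps8 was higher (7.43% of genes) and Vps33a lower (14.9% of genes), at 0.564 from 7 and 36 UMIs with an interval of 0.212 to 1.29. In oligodendrocyte-like cells Vps8 was higher (9.57% of genes) and Vps16 lower (11.4% of genes), at 0.661 (0.372 to 1.14).

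Of the astrocyte-like members, 3 were measured and 1 was higher (12.7% of genes), Vps11 at 1.91 (0.708 to 4.73) from 8 and 16 UMIs. Vps8 was the single member with enough UMIs in committed precursor-like, oligodendrocyte precursor-like and microglia-like cells, where 13.3%, 14.5% and 20.5% of genes were higher. In free RNA Vps8 was higher (8.32% of genes) and Vps11 lower (10.8% of genes), at 12.2 and 20.0 CPM with a ratio of 0.610 (0.413 to 0.894). Over the 5 subunits besides Vps8, 32 of 55 pairs of gene and comparison were measured; 1 was higher, 3 were lower and 28 were neither, and 2 of the 32 intervals left out 1. The other 23 pairs held under 20 UMIs and were not counted. Among them Vps16 in astrocyte-like cells, with 0 and 19 UMIs, and Vps18 in oligodendrocyte precursor-like cells, with 0 and 9 UMIs, had intervals below 1, of 0 to 0.819 and 0 to 0.894.

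**Figure D4:**
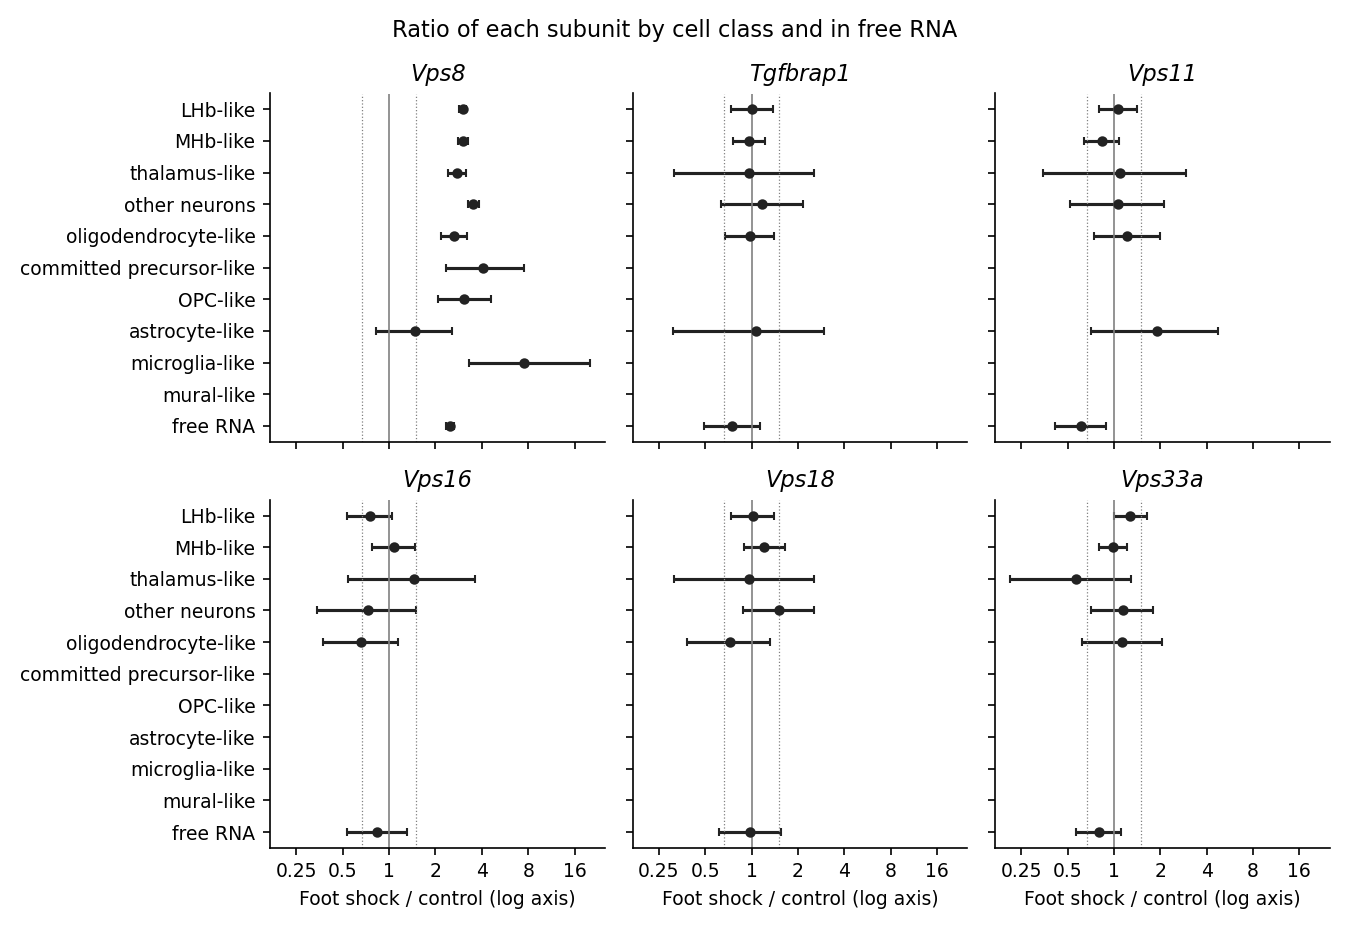
Foot shock to control ratio on a log axis for each of the 6 subunits in 10 cell classes and free RNA, where measured; bars are exact conditional binomial 95% intervals, the solid line marks 1 and dotted lines 1.5 and 0.667. Vps8 lies right of 1 throughout, while the other 5 subunits lie between 0.564 and 1.91.

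Vps8 was chosen by its ratio in neurons, so its ranks among all genes, here and over sets of classes, only describe it. Its ratio in neurons was near the top. In LHb-like neurons 19 of 11635 measured genes, Vps8 included, had a ratio as high or higher, and 2 of the 8335 with at least 100 UMIs. In MHb-like neurons these counts were 22 of 11769 and 4 of 8839, and in other neurons 9 of 9486 and 1 of 4224. In oligodendrocyte-like cells 189 of 9371 genes and in free RNA 351 of 11948 had ratios at or above that of Vps8, so there its ratio was shared by more genes.

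Over the 4 neuron classes, 7031 genes were measured in each, and Vps8 had the highest smallest ratio of them, at 2.76. The next were Lrrc17, a leucine-rich repeat gene, with a smallest ratio of 2.06, the transcript A330069E16Rik with 2.02, and Fos, the immediate early transcription factor, with 1.94. Lrrc17 had ratios of 2.47 in LHb-like and 2.28 in MHb-like neurons and 2.63 in free RNA. After them came Rps18-ps3 at 1.60 and Rps27rt at 1.57, near-copies of ribosomal protein genes whose counts are uncertain because reads may be split with the parent gene. In all, 3 genes were at 2 or more and 9 at 1.5 or more in each of the 4 classes.

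Mirrored, the genes with the lowest largest ratio in those neurons were Gm26699 (0.539), Ado (0.560), Csmd1 (0.560), Marf1 (0.651) and Rock2 (0.654), and 6 genes were lower in each of the 4 classes. Over the 9 classes in which Vps8 was measured, 1609 genes were measured in each, and Vps8 ranked 2 with its astrocyte-like value of 1.48, after Rps27rt at 1.56. The ones that followed were Wdr89 at 1.31, Ntm at 1.25, Pcsk2 at 1.25 and Gprasp1 at 1.24. Over all 10 classes 671 genes could be compared, without Vps8; Rps27rt (1.56), Wdr89 (1.31), mt-Nd3 (1.20), Gm5741 (1.16) and Mt1 (1.13) had the highest smallest ratio, and Dpysl2 (0.780), Zfp91 (0.869), Luc7l2 (0.915), Arglu1 (0.917) and Gnb1 (0.921) the lowest largest. The sets of 4 and 9 classes were chosen after the values were seen.

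**Figure D5:**
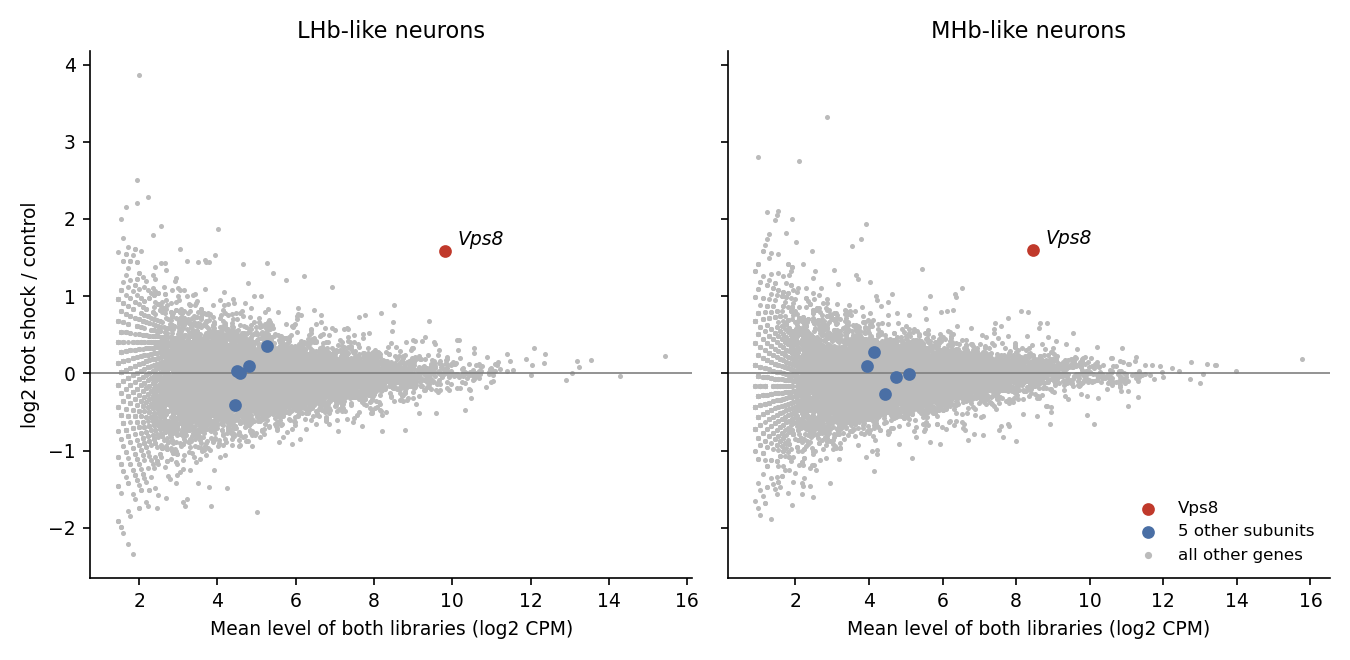
Log2 ratio of foot shock over control (prior count 0.5) against the mean level of both libraries in log2 CPM, for the 11635 genes measured in LHb-like and 11769 in MHb-like neurons. Vps8 (red) lies far above the band of genes of like level, while the other 5 subunits (blue) lie inside it.

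Most genes of the endosomal pathway around CORVET were within 1.5-fold in habenula neurons. Of 52 names on 7 further lists 50 were matched, Zfyve20 and Ccdc132 through their current symbols Rbsn and Vps50. Vps28 is not analysed here, and Vps22 is another name of the ESCRT gene Snf8, which is counted once, at 0.865 in LHb-like and 0.982 in MHb-like neurons. In LHb-like neurons 48 were measured, of which 2 were higher and 1 lower; their median log2 ratio was -0.03, beside -0.05 over all genes. In MHb-like neurons 1 of 49 was higher and 1 lower, with a median of 0.02 beside -0.04. These shares lie near those over all genes given above. In oligodendrocyte-like cells 3 of 48 were higher and 2 lower, and in free RNA 2 of 49 were higher and 3 lower. The ESCRT gene Vps37b and the SNARE gene Vamp8, named after their values were seen, were the higher ones in free RNA, at 2.93 (2.07 to 4.22) and 2.07 (1.52 to 2.85). The lower ones there were the retromer gene Vps26a at 0.558 (0.441 to 0.703), from 120 and 201 UMIs, Mon1a, part of the Rab7 exchange factor, at 0.665 (0.468 to 0.939), and Vps33b at 0.569 (0.271 to 1.15).

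The HOPS-specific genes Vps39 and Vps41 ranged from 0.923 to 1.05 in LHb-like and from 0.835 to 0.911 in MHb-like neurons. The CHEVI genes Vps33b and Vipas39, which form a related tether, ranged from 0.844 to 1.11 in LHb-like and from 0.823 to 0.853 in MHb-like neurons. Rab5 and Rab7 GTPases and their regulators ranged from 0.780 to 1.12 and from 0.857 to 1.68. The highest was Rin1, a Rab5 exchange factor, with 32 and 17 UMIs in MHb-like neurons (0.905 to 3.22). Early endosome tethers and fusion genes ranged from 0.739 to 1.13 in LHb-like and from 0.852 to 1.20 in MHb-like neurons, and the retromer, which retrieves cargo from endosomes, from 0.918 to 1.13 and from 0.911 to 1.08.

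GARP and EARP, tethers for traffic from endosomes, ranged from 0.657 to 1.40 in LHb-like neurons, where Vps54 gave the lowest ratio (0.455 to 0.937), and from 0.824 to 1.19 in MHb-like neurons, where Vps50 was lowest (0.717 to 0.946). ESCRT genes, which sort cargo into multivesicular bodies, ranged from 0.800 to 1.99 in LHb-like neurons. The highest was Vps25 with 18 and 12 UMIs (0.907 to 4.53), and Vps37b stood at 1.54 (0.794 to 3.00). In MHb-like neurons ESCRT genes ranged from 0.628 to 1.19, with Vps37c lowest (0.330 to 1.17).

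Vps8 lies on chromosome 16 (mm10 chr16:21423118-21644680, plus strand) and overlaps no other gene annotated in GENCODE vM21. Whether the release used for counting differs there is not known. Its nearest protein-coding neighbour, 2510009E07Rik, ends 4.365 kb beyond it on the opposite strand and had ratios of 0.896 (0.770 to 1.04) in LHb-like neurons, 0.890 (0.802 to 0.987) in MHb-like neurons and 0.829 (0.665 to 1.03) in free RNA. Map3k13, a neuronal stress kinase, had 1.21 (0.459 to 3.13) in LHb-like and 1.92 (0.963 to 4.04) in MHb-like neurons, from 28 and 13 UMIs in MHb-like neurons. Ehhadh, a peroxisomal enzyme, had 0.744 (0.288 to 1.88) in MHb-like neurons. The counts of Tgfbrap1, Vps16 and Vps33a are uncertain to the extent that they overlap other annotated genes.

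Across the 20 profiles of 10 classes in 2 libraries, Lrrc17 had the pattern most like Vps8 of 10648 genes, with a Pearson r of 0.959 between log2(CPM + 10) values. The next were Snap47, a SNARE family gene, with 0.916, Clstn3, a synaptic adhesion gene, with 0.908, Zcchc12 with 0.903 and Scg5, a chaperone of prohormone convertase, with 0.902. These 20 points share libraries and class depth, and r is a description. Snap47, Clstn3, Zcchc12 and Scg5 had foot shock to control ratios of 1.07, 1.06, 1.05 and 0.981 in LHb-like neurons, so their likeness to Vps8 is in the order of the classes. The other 5 subunits had r from -0.12 for Tgfbrap1 to 0.57 for Vps33a.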

How the data were processed

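Per the labels' protocols, libraries were made with 10x Genomics 3' V2 chemistry. Per the submitters' processing notes the authors ran Cell Ranger 2 with mm10, and the deposited values are raw UMI counts of 28692 genes in 737280 barcodes per library. No source used here names the annotation release. The members and lists were chosen with earlier results of these data known.

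Cells were barcodes with at least 1000 UMIs, 500 to 6000 genes and at most 20% mitochondrial UMIs. Doublets were removed with Scrublet (scanpy 1.11.5, expected rate 0.08), 69 in foot shock (1.43%) and 249 in control (4.85%). Cells were clustered together by Leiden (leidenalg 0.10.2) on 2000 variable genes, 30 components and 15 neighbours at resolution 1.0, with the members and listed genes, other than Rbsn and Vps50, left out of the features. A cluster took a name with at least 3 markers held, each in at least 10% of its cells, and a habenula name also with Pou4f1 at 1 per 10000. LHb and MHb sub-clusters under that level became other neurons, and 1 sub-cluster led by astrocyte genes was left out (59 foot shock and 10 control cells). These 2 rules were set after the data were seen.

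Counts were summed per class and library. Levels carry exact Poisson, ratios exact conditional binomial and shares exact Clopper-Pearson intervals, and no p-value was computed. Ratio intervals were checked on Poisson counts drawn from the LHb-like means. Such counts leave out how UMIs group in cells, so the check covers only the computation. Gene positions come from GENCODE vM21, and upstream sequences from RefSeq. Named were all members, list members furthest in each direction in habenula neurons, the 5 genes with the highest smallest and lowest largest ratio, the 5 most like Vps8, and neighbours starting within 500 kb with at least 20 UMIs. TMM factors came from edgeR 4.0.16.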

Additional observations from a re-analysis of the deposited data

Results flagged for a closer look

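Vps8 in cells and barcodes that entered no comparison was also higher in foot shock than in control. In endothelial-like cells, left out because foot shock held 46 of them and control 64, Vps8 had 51 and 5 UMIs, and the ratio was 14.5 (5.81 to 46.4). In foot shock 1 of these cells held 16 of the 51 UMIs, and 14 of the 46 had any, so this ratio leans on few cells. In barcodes over the mitochondrial limit Vps8 had 108 and 15 UMIs and a ratio of 2.37 (1.38 to 4.39). In barcodes of over 100 and up to 300 UMIs, below every depth accepted for a cell, it had 265 and 163 UMIs and a ratio of 1.84 (1.51 to 2.25). These differences were not tested.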

How the results depend on the processing

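Of 117 recomputed Vps8 ratios, 110 stayed within the interval of the reported value, 7 moved outside it and 0 fell below 1. In LHb-like neurons they ranged from 2.96 to 3.08, in MHb-like neurons from 2.85 to 3.19 and in free RNA from 2.43 to 2.55. The depth band of 2000 to under 4000 UMIs was not among the 117. There the ratio was 3.32 in LHb-like and 3.76 in MHb-like neurons, each above the interval of the reported value. In oligodendrocyte-like cells the ratio was 2.05 with a minimum of 500 UMIs, 2.12 with doublets kept, 2.04 in cells of 1000 to under 2000 UMIs and 1.81 in cells without a neuron marker UMI. It was 1.24 in oligodendrocyte precursor-like cells of at least 2000 UMIs, and in cells of 1000 to under 2000 UMIs 7.15 in other neurons and 2.18 in thalamus-like neurons. In committed precursor-like cells it was 7.32 after subtraction of free RNA at 10% of the class total. The cause was not tested. The depth band of 1000 to under 2000 UMIs, the cells without neuron markers and the omission of the cell of most Vps8 UMIs in each library were added after the data were seen. Among the other 5 subunits, 305 recomputed ratios stayed within their intervals. With doublets kept, 7 of 34 pairs passed 1.5-fold in either direction, against 4 of 32. The share over all genes was not computed with doublets kept, so nothing is read from that count. With a minimum of 100 UMIs fewer genes were tested. Trafficking genes past 1.5-fold then numbered 1, against 3, in LHb-like neurons and 0, against 2, in MHb-like neurons. In oligodendrocyte-like cells they numbered 0, against 5. The shares of all genes called were then 1.19% higher and 2.03% lower in LHb-like and 0.86% and 1.39% in MHb-like neurons. In oligodendrocyte-like cells these shares were 3.56% higher and 6.46% lower. Thinning to 1000 UMIs used expected counts. No paired analysis was possible because each group is 1 library, and for the same reason no replicate could be left out. Counts below 20 UMIs limit the other subunits in 5 of the 11 comparisons.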
